A study of Mus musculus with 2 samples.

Results

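Oxidative phosphorylation (OXPHOS) genes of the nucleus were described in single spiral ganglion neurons of the mouse. Members were taken by symbol: every row that starts with Nduf, Uqcr, Atp5, Cox4, Cox5, Cox6, Cox7 or Cox8, plus Sdha, Sdhb, Sdhc and Sdhd. This gave 90 of the 14425 genes in the table. They comprise 36 genes of complex I, 4 of complex II, 8 of complex III, 17 of complex IV and 15 of complex V, and the others are complex I assembly factors, Cox7a2l, Atp5s and Atp5sl. The subunits encoded by mitochondrial DNA were not analysed here, nor were Cox8c and Ndufa4l2.

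The respiratory chain sits in the inner mitochondrial membrane. Complexes I and II take electrons from NADH and succinate, complex III passes them to cytochrome c, and complex IV hands them to oxygen. Complexes I, III and IV pump protons, and complex V, the ATP synthase, makes ATP as the protons flow back. Complex II is also an enzyme of the tricarboxylic acid (TCA) cycle and, unlike the others, is encoded wholly in the nucleus. Spiral ganglion neurons carry sound signals from hair cells to the brainstem. Most are myelinated type I neurons, which contact inner hair cells and are divided into Ia, Ib and Ic subtypes, and a small population of type II neurons contacts outer hair cells.

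The study has 1 library per genotype, and both genotypes carry a tamoxifen-inducible Cre inserted at Runx1 and the Ai14 tdTomato reporter. The control library, iCON, came from Runx1-CreER/+; Ai14/+ mice, and the library labelled iCKO from Runx1-CreER/Runx1F; Ai14/+ mice, in which the other Runx1 allele is floxed. Tamoxifen was given on postnatal day 1 and the cochlear tissue, from postnatal days 27 to 29, was sorted for tdTomato, so that cells in which the Runx1 driver had been active were recovered. The number of animals pooled in a library is not given in the sources used here, and a difference between the libraries cannot be told apart from a difference between genotypes.

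The iCON library held 462 cells with a median of 49725.5 unique molecular identifiers (UMIs) per cell, and the iCKO library 407 cells with a median of 33602. They shared 0 cell barcodes. The library labelled iCKO did not have a lower level of the targeted gene: Runx1, a transcription factor, had a mean of 86.7 CPM (UMIs per 1000000 UMIs of the cell) in iCON and 112 in iCKO, from 1940 and 1517 UMIs. Whether the 3′ tags lie within the floxed part is not given in the sources used here, so the count may not report on the deletion, and each direction from iCON to iCKO rests on the labels. At least 90% of cells of each library held a UMI of 5 of the 6 neuron markers, and Rbfox3 was detected in 84.85% of iCON and 79.85% of iCKO cells. The libraries also differed in make-up. Cells that held Xist but lacked Y-linked transcripts (Xist cells) made up 54.5% of iCON and 78.4% of iCKO, and the median summed level of 8 myelin genes was 4156 and 2617 CPM. Their part in the results was not tested, but the results were recomputed within cells of 1 sex and within cells low in myelin RNA.

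Cells were divided on linear values of Lypd1, a marker of Ic neurons, and Calb2, which encodes calretinin and marks Ia neurons. Lypd1 reached 1000 CPM in 180 iCON and 126 iCKO cells (Lypd1-high) and was below 100 CPM in 256 and 261 (Lypd1-low). Calb2 reached 10000 CPM in 86 and 227 cells (Calb2-high), lay between 1000 and 10000 CPM in 204 and 142 (Calb2-intermediate), and was below 1000 CPM in 172 and 38 (Calb2-low). The classes are ranges, not cell types, and they overlap: 140 of the 172 Calb2-low iCON cells and 30 of the 38 Calb2-low iCKO cells were also Lypd1-high. Cells of 1 library are not replicates, so no test was run. Counting intervals at 95% refer to the ratio of summed UMIs, whereas a log2 ratio is of mean CPM over cells with 5 CPM added to each mean, so that a ratio can lie outside its interval. A gene is called higher or lower where its log2 ratio passes 0.32 in size, provided that its mean reached 50 CPM in either arm (the level filter).

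The promoters of 2 paralogue sets on which the results turn are shown first, Cox8a with Cox8b and Atp5g1 with Atp5g2, since in each the libraries or the Calb2 classes held them in different proportions. Cox8a and Cox8b encode the ubiquitous and the heart and muscle isoform of the smallest nuclear subunit of cytochrome c oxidase, and Atp5g1 and Atp5g2 encode precursors of one and the same mature c subunit of the ATP synthase rotor. Each sequence runs 5′ to 3′ from 250 bases before to 50 after the RefSeq transcription start on GRCm38.p6, and all 4 lie on the minus strand: Cox8a at chr19:7217567-7217866, Cox8b at chr7:140900397-140900696, Atp5g1 at chr11:96075582-96075881 and Atp5g2 at chr15:102670998-102671297. Capitals mark matches, on either strand, to the letters GCGCATGC (NRF1), CCGGAAG (ETS factors), AAGATGGCG (YY1), AAGGTCA (ERR) and TATAAA (the core promoter box).
Cox8a: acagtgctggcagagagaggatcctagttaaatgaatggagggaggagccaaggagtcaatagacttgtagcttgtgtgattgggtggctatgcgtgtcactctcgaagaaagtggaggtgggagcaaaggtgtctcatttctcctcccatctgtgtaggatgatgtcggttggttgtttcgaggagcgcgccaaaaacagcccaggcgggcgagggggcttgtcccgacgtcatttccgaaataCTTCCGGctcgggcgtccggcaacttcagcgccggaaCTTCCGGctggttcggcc
Cox8b: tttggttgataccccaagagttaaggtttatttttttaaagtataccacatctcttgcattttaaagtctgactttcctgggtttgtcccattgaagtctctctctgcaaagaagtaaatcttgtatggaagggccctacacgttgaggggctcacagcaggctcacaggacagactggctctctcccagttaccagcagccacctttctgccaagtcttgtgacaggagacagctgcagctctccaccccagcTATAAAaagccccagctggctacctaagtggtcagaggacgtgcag
Atp5g1: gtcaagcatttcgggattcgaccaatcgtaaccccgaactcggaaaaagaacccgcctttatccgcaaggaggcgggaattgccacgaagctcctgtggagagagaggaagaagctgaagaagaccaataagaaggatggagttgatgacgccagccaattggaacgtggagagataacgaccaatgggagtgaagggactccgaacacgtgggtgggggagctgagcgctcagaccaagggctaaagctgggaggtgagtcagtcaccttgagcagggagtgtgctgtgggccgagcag
Atp5g2: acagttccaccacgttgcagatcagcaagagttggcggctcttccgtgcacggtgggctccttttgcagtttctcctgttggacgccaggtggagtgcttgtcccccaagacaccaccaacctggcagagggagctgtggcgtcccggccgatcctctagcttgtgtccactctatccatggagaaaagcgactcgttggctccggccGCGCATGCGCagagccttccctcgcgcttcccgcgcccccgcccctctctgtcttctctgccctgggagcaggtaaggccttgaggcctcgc

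The Cox8a promoter held the ETS letters at 2 places and no TATA letters, the Cox8b promoter held the TATA letters and none of the others, Atp5g2 held the NRF1 letters on both strands in 1 overlapping stretch, and Atp5g1 none of the 5. Among 82 promoters of the 76 members that matched a RefSeq entry, the NRF1 letters were in 14.6%, against 6.4% of 3797 promoters of genes that passed the level filter and 2.71% of 32851 promoters in all. The YY1 letters were in 11%, 3.71% and 1.4%, the ERR letters in 9.76%, 3.29% and 4.72%, the ETS letters in 20.7%, 18.9% and 8.86%, and the TATA letters in 9.76%, 6.43% and 13.6%. The E-box letters CANNTG were in 70.7%, 62.4% and 72.3%, and the MEF2 letters TATTTATA in 0, 0.869% and 1.7%. A match is a description of the letters in this window, and no factor's binding was measured.

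OXPHOS transcripts took a large and near equal share of the RNA in both libraries. Summed over the 90 members, the median cell held 73428 CPM in iCON (quartiles 67015 and 78542) and 73391 CPM in iCKO (67978 and 79014), or 7.34% of its UMIs in each. Single cells ranged from 27036 to 99706 CPM in iCON and from 29067 to 99082 in iCKO. Complex IV and complex I gave the largest sums, with medians of 23147 and 22651 CPM in iCON and 22770 and 22500 in iCKO. Complex V followed with 18000 and 18533 CPM and complex III with 7281 and 7217, while complex II held 947.1 and 945.9. The order of the complexes was the same in both libraries. Across cells the summed complex V level moved with that of complex IV (Spearman's rho 0.86 over 462 iCON cells and 0.80 over 407 iCKO cells), values that share each cell's total UMIs as their denominator.

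**Figure D1:**
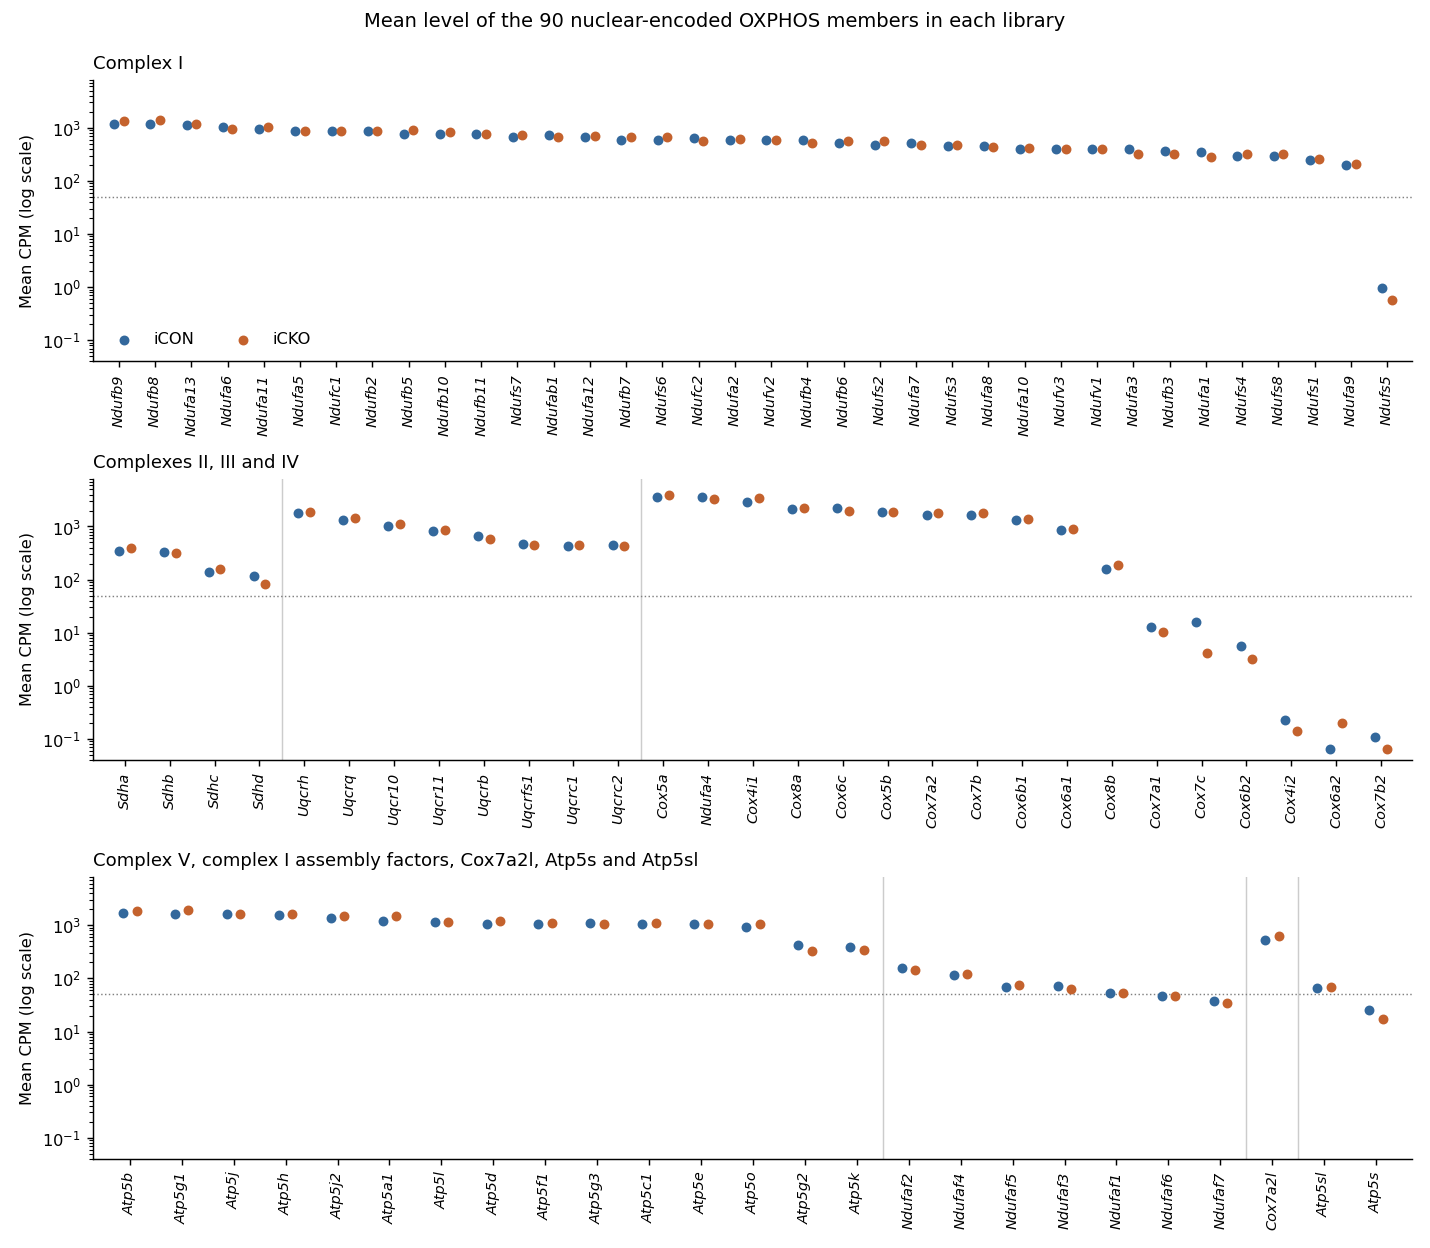
Mean level of each of the 90 members in CPM (log axis) in the iCON library (blue) and the iCKO library (orange), ordered by complex and level, with the dotted line at 50 CPM. Most members lie at or near the same level in both libraries, and 10 members lie below 50 CPM in each.

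The 3′ assay counts about 1 UMI per captured transcript end, so levels of different genes can be compared as molecules without division by length. Members with near-identical copies, described below, are an exception, since their reads may be lost or shared. In iCON 28 members averaged at least 1000 CPM, 42 lay between 200 and 1000, 10 between 50 and 200, and 10 below 50. In iCKO these numbers were 29, 42, 9 and 10. In iCON 75 members, and in iCKO 74, had a UMI in at least 95% of cells. Ranked by the average of both libraries, the 10 most abundant members were mostly subunits of complex IV: Cox5a (mean 3539 CPM in iCON and 3898 in iCKO), Cox4i1 (2945 and 3439), Cox8a (2151 and 2274), Cox6c (2216 and 1977), Cox5b (1895 and 1839) and Cox7a2 (1671 and 1785). Ndufa4, first described in complex I and now assigned to complex IV, averaged 3518 and 3263 CPM, below Cox5a in both libraries and below Cox4i1 in iCKO. The others were Uqcrh, the hinge protein of complex III (1802 and 1887), and, of complex V, the catalytic subunit Atp5b (1722 and 1861) and Atp5g1 (1660 and 1901). Cox7b, outside these 10, averaged 1639 CPM in iCON and 1800 in iCKO, where it lay above Cox7a2.

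Members below 50 CPM in both libraries were the tissue-restricted isoforms Cox4i2, Cox6a2, Cox6b2, Cox7a1 and Cox7b2, the assembly factors Ndufaf6 and Ndufaf7, and Atp5s, Cox7c and Ndufs5. Cox4i2, the lung isoform of subunit 4, had 4 UMIs in iCON and 2 in iCKO, Cox6a2, the heart and muscle isoform of subunit 6A, had 1 and 3, and Cox7b2 had 2 and 1. Of the isoforms expressed mainly in heart and skeletal muscle, Cox8b was the exception: it was detected in 90.5% of iCON and 93.1% of iCKO cells, whereas Cox7a1 averaged 12.6 and 10.2 CPM, or 0.716% and 0.578% of the UMIs of Cox7a1 plus Cox7a2. Cox6b2, the testis isoform of subunit 6B, made up 0.368% and 0.238% of the UMIs of its pair.

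The low values of Cox7c and Ndufs5 are uncertain as levels. They encode subunits of complexes IV and I that are not tissue-restricted. Cox7c averaged 15.8 CPM in iCON and 4.11 in iCKO, with 362 and 57 UMIs, and Ndufs5 0.965 and 0.585. In the GRCm38 annotation Cox7c has 2 pseudogene copies with up to 100% identity to its transcript end and Ndufs5 has 1 with 99.3%. Of the 90 members, 19 have a near-identical copy in another annotated gene or a pseudogene (at least 97% identity over at least 100 bases of the last 400), among them Atp5l with 7, Atp5g2 with 2 and Atp5g1 with 1. How reads of these members were shared out with their copies is not given in the sources used here.

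Cells that held UMIs of several type II markers had a lower median of OXPHOS RNA than the rest of their library, a comparison chosen after its values were seen. Cells with UMIs of at least 3 of 6 type II markers (Prph, Gata3, Th, Plk5, Smad3 and Etv4) numbered 28 in iCON and 10 in iCKO. Single UMIs were counted, and Gata3 alone was found in 78.79% of iCON and 69.78% of iCKO cells. In iCON the summed OXPHOS level of the marked cells ranged from 27036 to 43180 CPM with a median of 34088, against a median of 73983 CPM (range 30915 to 99706) in the other 434 cells. In iCKO they ranged from 29067 to 78048 CPM with a median of 39738, against 73552 (range 34666 to 99082) in the other 397. The groups overlapped in both libraries: 26 of the other iCON cells and 3 of the other iCKO cells lay below 50000 CPM, and 4 of the 10 marked iCKO cells lay above it.

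The level stepped down at the third marker in iCON and at the fourth in iCKO. In iCON the 23 cells with 2 markers had a median of 73609 CPM, whereas the 13 with 3 markers had 33522 and the 15 with 4 had 35170. In iCKO the medians were 73581 CPM in 29 cells with 2 markers, 69355 in 6 cells with 3, and 35960 in 4 cells with 4. In iCON the 28 marked cells were also all Calb2-low, Lypd1-low and positive for Xist, and they held 0 Runx1 UMIs. In iCKO 6 of the 10 were Calb2-low, 2 were of the Xist class, and together they held 30 Runx1 UMIs. Marked cells were shallower, with median depths of 30122 UMIs against 50544 in iCON and 21989 against 33643 in iCKO. In each library 50% of them were low in myelin RNA, against 21.89% of the other cells in iCON and 38.29% in iCKO. After thinning each cell to 20000 UMIs the members' median log2 ratio in iCON was -1.11, and within cells of the Xist class it was -1.09, close to its value of -1.08 over all cells. The iCKO value moved more: it was -0.52 over all cells, -1.03 with at least 4 markers, -0.87 within myelin-low cells and -0.35 from summed UMIs.

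By gene, nearly the whole set was lower in the marked cells. In iCON 75 of the 81 members that passed the level filter were called lower and 1 higher, with a median log2 ratio of -1.08. Over the 4250 genes that passed, 35.0% were lower and 32.4% higher, with a median of -0.01. In iCKO 64 of 81 members were lower and 1 was higher, with a median of -0.52, where 30.3% of 4192 genes were lower and 31.7% higher. Of the 81, 6 in iCON and 3 in iCKO, Cox8b and Sdhd among them, reached the level filter only through the other cells, where they were high. Over the 74 and 77 members that reached it in both arms the medians were -1.07 and -0.52. The 64 members called lower in iCKO were also called lower in iCON, while 25.7% of 3864 genes in all were lower in both. Cox5a, the most abundant member and a subunit of complex IV, averaged 664 CPM in marked iCON cells and 3725 in the others (log2 ratio -2.48). Atp5g3, the third c-subunit gene, averaged 404 and 1164 CPM (-1.52), and Ndufaf2, an assembly factor of complex I that reached the filter through the other cells, 40.3 and 167 (-1.93).

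Cox8b had the lowest ratio of the members in both libraries, and a few members went the other way. It averaged 12.3 CPM, from 11 UMIs, in marked iCON cells against 166 in the others (log2 ratio -3.31), and 18.3 against 194 CPM in iCKO (-3.09). Ndufaf6, which acts early in complex I assembly, was the member called higher in both libraries, with 124 against 42.0 CPM in iCON (1.46) and 103 against 46.2 in iCKO (1.08). It reached the level filter only through the marked cells, and Cox8b only through the other cells, so that both calls are descriptions. Ndufv3, an accessory subunit of the NADH-oxidising module, was near level in iCON with 469 against 396 CPM (0.24), as was Atp5g2 with 444 against 427 (0.06). Genes of the TCA cycle and pyruvate dehydrogenase, taken as 1 list, were lower too, with a median of -0.86 in iCON and -0.49 in iCKO and 0 of 15 positive in either, and glycolytic genes had medians of -0.67 and -0.27, with 4 of 15 above 0 in each library and 10 and 7 called lower. Cytosolic ribosomal proteins lay on the other side, with medians of 1.01 and 0.74. All are shares of a cell's UMIs, so that a lower share of one group raises the others.

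Cells low in OXPHOS RNA were unevenly spread over the classes. Below 50000 CPM, a limit also chosen after values were seen, lay 54 of 462 iCON cells, or 11.69% (exact binomial interval 8.90 to 15.0%), and 9 of 407 iCKO cells, or 2.21% (1.02 to 4.16%). In iCON they made up 20.9% of Calb2-low, 4.90% of Calb2-intermediate and 9.30% of Calb2-high cells. The 28 cells with at least 3 type II markers were among the 36 in the Calb2-low class, which left 8 of 144 without them. In iCKO 7 were Calb2-low and 2 Calb2-high, and 6 carried the markers. Their median depth was 28101 UMIs against 50993 for the other iCON cells and 21169 against 33771 for the other iCKO cells. Whether depth has a part in the low tail of the unmarked cells was not tested.

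**Figure D2:**
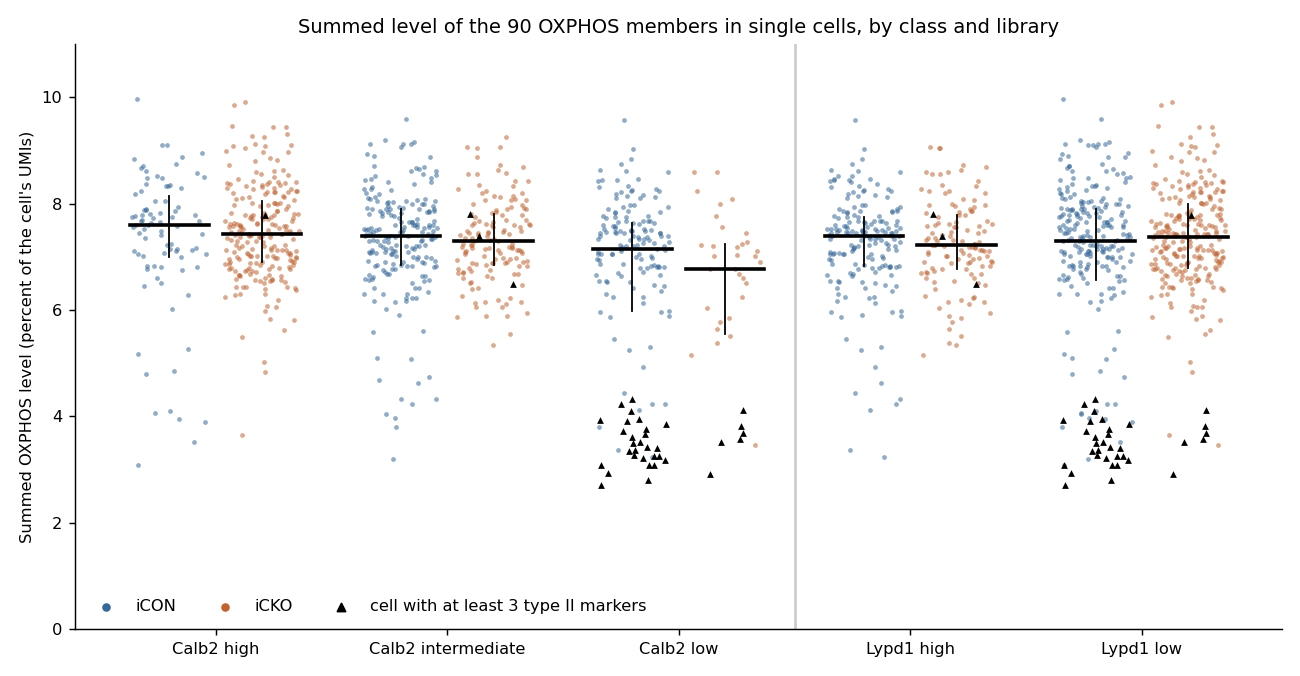
Summed level of the 90 members in each cell, as a percent of the cell's UMIs, by Calb2 and Lypd1 class, for iCON (blue) and iCKO (orange), with horizontal bars at the median, vertical bars over the quartiles and black triangles for cells with at least 3 type II markers. The class medians lie close together between 6.77 and 7.59%, and the triangles form most of the low group in the Calb2-low class of iCON.

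Between Calb2 classes the members as a set were somewhat higher in Calb2-high cells. The median summed level was 75889 CPM in Calb2-high, 73931 in Calb2-intermediate and 71464 in Calb2-low cells of iCON, and 74354, 72946 and 67694 CPM in iCKO. The order was the same in both libraries, and the differences between neighbours were smaller than the spread over cells of a class, whose quartiles in iCON were 69943 and 81475 CPM in Calb2-high and 59817 and 76342 in Calb2-low cells. Gene by gene, the median log2 ratio of Calb2-high over Calb2-low was 0.19 in iCON and 0.27 in iCKO, where the median of all genes was -0.03 in each. Of 81 members that passed, 70 were above 0 in both libraries, or 86.4%, against 36.2% of 3645 genes in all. Calb2-high cells were also deeper, with median depths of 55570 UMIs against 48425 in Calb2-low cells of iCON and 34777 against 29902 in iCKO. Across cells the summed level had a Spearman's rho of 0.35 with depth in iCON and -0.0001 in iCKO. With Calb2 it had 0.28 and 0.20. The part of depth in this contrast was not tested.

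Few members passed the fold in iCON. There 8 of 81 were higher, against 11.2% of the 3835 genes that passed, and 1 was lower, against 15.3%. In iCKO 20 of 81 were higher, against 13.3% of 3889 genes, and 1 was lower, against 18.2%. The 5 called higher in both were Cox8b, Atp5a1, Ndufs1, Sdha and Sdhc, or 6.17% of the members against 7.96% of all genes. Ndufaf6 was the 1 called lower in both, and it reached the level filter only through the Calb2-low arm, where it was high. By complex the medians were 0.16 and 0.25 for complex I, 0.33 and 0.44 for complex II, 0.18 and 0.26 for complex III, 0.22 and 0.32 for complex IV, and 0.18 and 0.25 for complex V, while the assembly factors had 0.00 and 0.21, in iCON and iCKO respectively. Complex II, the smallest set, had the highest median of the 5 complexes, with mean sums of 1060 CPM in Calb2-high and 833 in Calb2-low cells of iCON and 1023 and 779 in iCKO.

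Much of this difference in iCON moved with the type II-marked cells. Without them, 86 Calb2-high and 144 Calb2-low iCON cells gave a median of 0.06, with 50 of 80 members above 0, against 44.7% of 3787 genes. Of them 3 were called higher (Cox8b, Atp5a1 and Atp5sl), against 8.48% of all genes, and 0 lower, against 12.0%. In iCKO 226 and 32 cells gave 0.16, with 69 of 81 above 0, against 44.6% of 3847 genes. There 5 were called higher (Cox8b, Atp5a1, Ndufa5, Sdhc and Sdha), against 9.98%, and 0 lower, against 13.7%. The value also differed between cells grouped by sex-linked RNA: in iCON it was 0.29 in Xist cells and -0.01 in cells positive for Y-linked transcripts, and in iCKO it was 0.14 in Xist cells and 0.55 in the Y-linked cells, of which 39 were Calb2-high and 14 Calb2-low. This split also sorted the marked cells: they were 28 of 109 Calb2-low Xist cells and 0 of 61 Y-linked ones in iCON, and 0 of 23 and 6 of 14 in iCKO. Without them the values for Xist and Y-linked cells were 0.09 and -0.01 in iCON and 0.13 and 0.25 in iCKO. In cells low in myelin RNA it was 0.42 in iCON, with 56 of 81 members called higher, against 21.8% of 3940 genes. This split sorted the marked cells too: 14 of them were low in myelin RNA, as were 20.35% of the 172 Calb2-low iCON cells. A value for these cells without the marked ones is not given here. Within Lypd1-high cells, which included 0 type II-marked cells in iCON and 3 in iCKO, Calb2-intermediate over Calb2-low cells gave members' medians of 0.01 in iCON (39 and 140 cells) and 0.10 in iCKO (82 and 30).

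**Figure D3:**
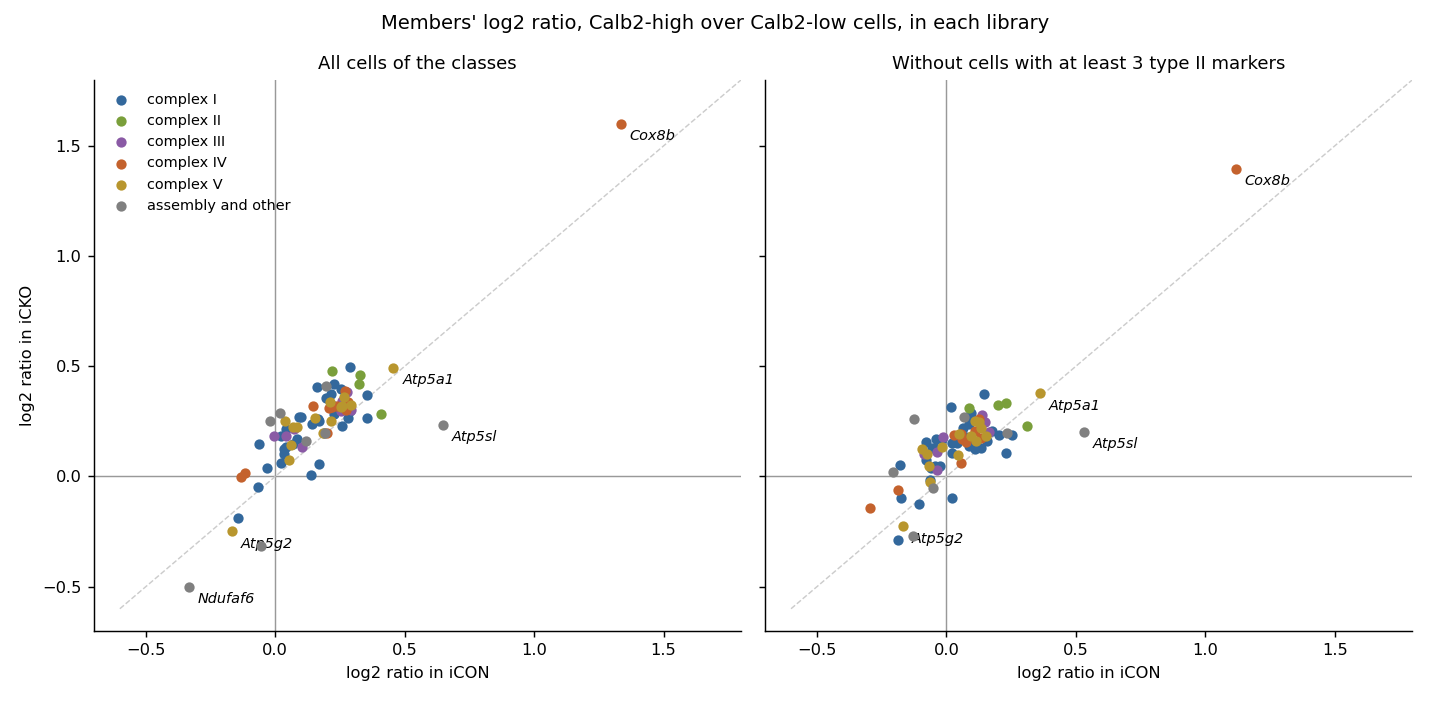
Log2 ratio of mean CPM, Calb2-high over Calb2-low cells, for each member that passed the level filter, in iCON (horizontal axis) and iCKO (vertical axis), coloured by complex, with all cells (left) and without cells carrying at least 3 type II markers (right). The cloud lies mostly above 0 in both libraries on the left and moves towards 0 on the right, with Cox8b apart from the others in both panels.

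Cox8b (chromosome 7, 140898945 to 140900446, minus strand, GRCm38) had the largest ratio of any member and followed Calb2 in steps. In iCON it averaged 261.5 CPM in Calb2-high cells (SD over cells 157, median 258), 159 in Calb2-intermediate (113, 147) and 100.7 in Calb2-low cells (98.9, 76.1). In iCKO the means were 240 CPM (SD 146, median 215), 139 (117, 113) and 75.8 (82.4, 43.5). The ordering was the same in both libraries, although the cells of neighbouring classes overlapped widely. A Cox8b UMI was found in 97.67%, 96.08% and 80.23% of iCON cells and in 98.68%, 88.73% and 76.32% of iCKO cells, from Calb2-high to Calb2-low. The log2 ratio of Calb2-high over Calb2-low was 1.33 in iCON (interval 1.15 to 1.40) and 1.60 in iCKO (1.29 to 1.90).

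Cox8b kept this direction under the 16 alternatives run for it, with a range of 1.12 to 1.70 in iCON and 1.12 to 2.59 in iCKO. Without the type II-marked cells the ratio was 1.12 in iCON, from 261.5 against 117.9 CPM, and 1.40 in iCKO, from 240.8 against 88.5. With the marked cells included again, Calb2-intermediate over Calb2-low gave 0.63 and 0.83. In this contrast 6.74% of genes in iCON and 9.57% in iCKO were called higher. Within Lypd1-high cells the same step gave 0.21 and 0.35. Across cells Cox8b moved with Calb2 (Spearman's rho 0.47 over 462 iCON and 0.49 over 407 iCKO cells) and against the summed cytosolic ribosomal proteins (-0.33 and -0.39), values that share a cell's total. Its ubiquitous counterpart Cox8a (chromosome 19, 7215153 to 7217616, minus strand) differed little between the classes, with log2 ratios of -0.12 and 0.02. Cox8b thus made up 11.3% of the UMIs of the pair in Calb2-high and 4.64% in Calb2-low cells of iCON, and 9.56% and 3.31% in iCKO.

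**Figure D4:**
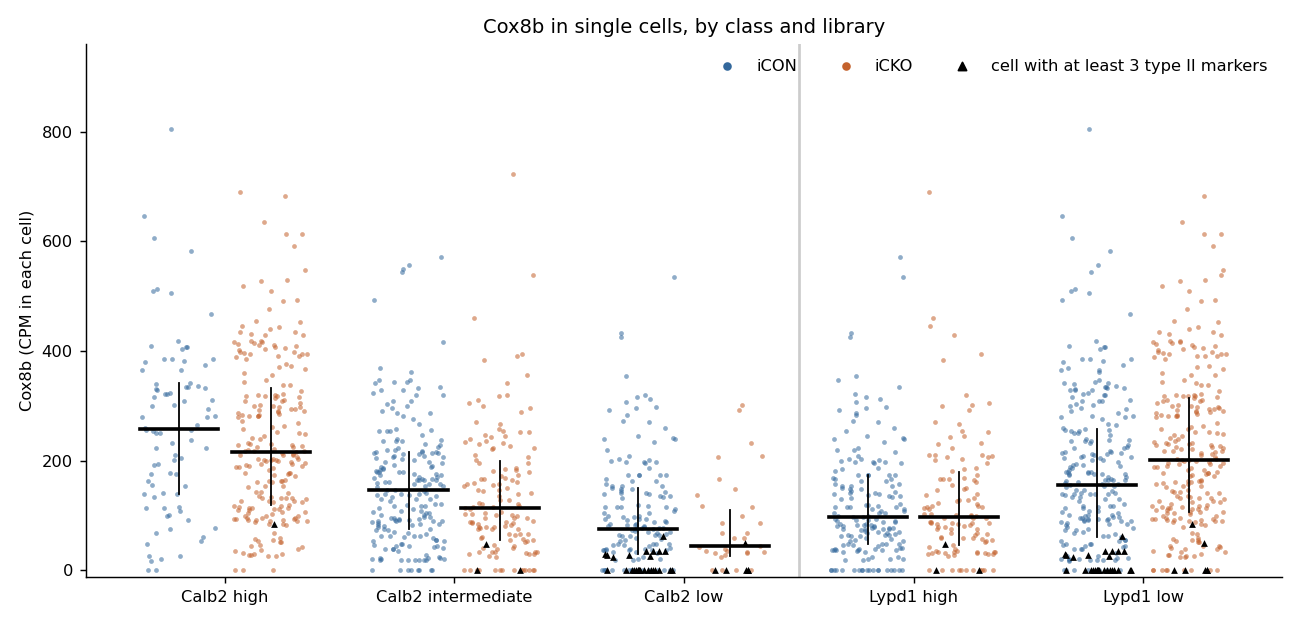
Cox8b in each cell in CPM, by Calb2 and Lypd1 class, for iCON (blue) and iCKO (orange), with horizontal bars at the median, vertical bars over the quartiles and black triangles for cells with at least 3 type II markers. In each library the median falls from the Calb2-high to the Calb2-low class, the classes overlap, and most triangles lie near 0.

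Of the other members, Atp5a1, the alpha subunit of the ATP synthase head, was next among those called in both libraries. It averaged 1399, 1307 and 1018 CPM from Calb2-high to Calb2-low in iCON (log2 ratio 0.46) and 1564, 1422 and 1110 in iCKO (0.49), and 0.36 and 0.38 without type II-marked cells. Its mean stepped down with Calb2 class in both libraries. Over the alternatives its ratio ran from 0.36 to 0.61 in iCON and from 0.29 to 0.87 in iCKO, so that the iCKO call was not kept in each. Atp5sl, also known as Dmac2 and involved in complex I assembly, averaged 83.2 and 51.3 CPM in iCON (0.65), but its ratio in iCKO was 0.23. Cox5a, the most abundant member, averaged 3918 and 3220 CPM in iCON (0.28) and 4048 and 3198 in iCKO (0.34), and without type II-marked cells its ratio was 0.08 and 0.16.

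On the low side, Ndufaf6 averaged 44.1 CPM in Calb2-high and 57.0 in Calb2-low cells of iCON (log2 ratio -0.33), and 45.1 and 66.0 in iCKO (-0.50). Without the type II-marked cells the ratio was 0.01 in iCON and -0.18 in iCKO, so that neither call was kept, and in iCKO it was 0.14 among Xist cells. Atp5g2 had ratios of -0.17 and -0.25, and Ndufa8, a subunit of the complex I membrane arm, -0.14 and -0.19. These were below 0 in both libraries without being called lower. Ndufa4 had -0.13 in iCON and -0.00 in iCKO, and Ndufaf3, an assembly factor, -0.06 and -0.32. Without type II-marked cells Ndufa4 had -0.30 in iCON and -0.14 in iCKO, and Ndufaf3 -0.13 and -0.27.

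Genes of neighbouring pathways, from lists chosen with earlier results known, were set beside the members for the same contrast. All 15 genes of the TCA cycle and pyruvate dehydrogenase that passed were above 0 in each library, with medians of 0.37 in iCON and 0.29 in iCKO, and 9 and 7 were called higher, where 11.2% and 13.3% of all genes were. Without type II-marked cells the medians were 0.24 and 0.25, with 15 and 14 above 0 and 7 and 5 called higher, against 8.48% and 9.98% of all genes. Cyc1 of complex III, outside the symbol rule, had 0.47 and 0.52, and Cycs, which encodes cytochrome c, 0.24 and 0.39. Without type II-marked cells the lower and the higher of these 2 ratios were 0.066 and 0.315 in iCON, with 0 called higher. In iCKO they were 0.25 and 0.37, with 1 called higher. Which gene had which value is not given here. Of the 8 listed regulators of mitochondrial biogenesis 3 passed the filter: the coactivator gene Ppargc1a averaged 245 and 164 CPM in iCON (0.56) and 314 and 191.5 in iCKO (0.70), its partner Esrra had 0.50 and 0.55, and Tfb2m 0.15 and 0.46. The median of the 3 was 0.50 and 0.55, and 0.37 and 0.54 without type II-marked cells.

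Ribosomal proteins were described in the same way. Mitochondrial ribosomal proteins had medians of -0.01 and 0.07, and cytosolic ribosomal proteins -0.40 and -0.37, with 58 of 78 called lower in iCON and 52 of 79 in iCKO, where 15.3% and 18.2% of all genes were, and 0 above 0. Without type II-marked cells the cytosolic medians were -0.20 and -0.19, with 6 of 78 and 8 of 79 called lower, against 12.0% and 13.7% of all genes in the same cells. Glycolytic genes had 0.19 and 0.28, and 0.08 and 0.16 without those cells. With all cells included, the pyruvate kinase gene Pkm was at 0.40 in both libraries and the hexokinase gene Hk1 at -0.25 and -0.29. Without type II-marked cells 0 of 14 glycolytic genes were called higher or lower in either library. Their ratios then ran from -0.24 to 0.26 in iCON and from -0.20 to 0.30 in iCKO. Metabolite carriers and porins had 0.20 and 0.23, and 0.09 and 0.13 without type II-marked cells. OXPHOS assembly factors outside the symbol rule had 0.04 and 0.06, and -0.02 and 0.02 without those cells. Of these factors, with all cells included, Atpaf1, a chaperone of complex V, had 0.34 and 0.65, and Uqcc2, an assembly factor of complex III, -0.35 and -0.21. Without type II-marked cells the factors ran from -0.43 to 0.318 in iCON, where 0 were called higher, and from -0.28 to 0.49 in iCKO.

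Between Lypd1 classes the members hardly differed. The median summed level was 73844 CPM in Lypd1-high and 72930 in Lypd1-low cells of iCON, and 72203 and 73774 in iCKO. The median log2 ratio of Lypd1-high over Lypd1-low was 0.05 in iCON and -0.03 in iCKO, against 0.01 for all genes in each. Above 0 were 65 of 80 members in iCON but 29 of 80 in iCKO. In both libraries 28 were above 0, or 35%, against 39.4% of 3550 genes. In iCON 1 of 80 was called higher, against 6.31% of 3773 genes, and 1 lower, against 6.36%. In iCKO 0 were called higher, against 5.37% of 3745 genes, and 1 lower, against 4.51%. Without the type II-marked cells, which lie mostly in the Lypd1-low class, the iCON median was -0.04.

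The member called lower in both libraries was again Cox8b, which is 1 of 80 members, where 2.99% of 3550 genes in all were. It averaged 123 CPM in Lypd1-high and 176 in Lypd1-low cells of iCON (log2 ratio -0.50, interval -0.66 to -0.45) and 127 and 220.5 in iCKO (-0.78, -0.91 to -0.64). Most Calb2-high cells were Lypd1-low, 85 of 86 in iCON and 201 of 227 in iCKO, so that this and the Calb2 contrast share cells. Ndufaf2, called higher in iCON, averaged 184 and 141 CPM there (0.37), and its ratio in iCKO was 0.07. Its iCON range over the alternatives was 0.25 to 0.475, so that the call was not kept in each. The 28 type II-marked iCON cells were all in the Lypd1-low arm. Ndufaf2 averaged 40.3 CPM in them and 167 in the other iCON cells, and its ratio without them is not given by itself here. Ndufa4 (chromosome 6, 11900292 to 11907497, minus strand) was positive in both libraries, at 3949 and 3203 CPM in iCON (0.30, range 0.16 to 0.42 over the alternatives) and 3519 and 3121 in iCKO (0.17, range 0.15 to 0.26). Its level moved with Lypd1 across cells, with Spearman's rho of 0.40 and 0.30 over all 462 and 407 cells. Ndufa12, a late-joining subunit of complex I, had 0.19 in each library, Atp5sl -0.18 and -0.26, and Atp5a1 -0.19 and -0.13. Genes of the TCA cycle and pyruvate dehydrogenase had a median of -0.14 in both.

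Between the libraries the OXPHOS set differed little, in the comparison that the genotypes imply. The median log2 ratio of iCKO over iCON was 0.06 over 80 members that passed, with 54 above 0, and 0.01 over all 3766 genes. The share of all genes above 0 is not given here. These values include the type II-marked cells, 28 in iCON and 10 in iCKO. As called, 0 members were higher, against 5.95% of all genes, and 4 were lower, against 7.59%. The members' ratios ran from -0.43 to 0.27. Within the Calb2 classes the same count gave 3 lower in Calb2-high cells (5.51% of all genes), 3 in Calb2-intermediate (6.0%) and 6 in Calb2-low (8.05%), and 0 higher in each (6.19, 5.97 and 8.93%). In Lypd1-high cells 3 were lower (7.43%) and in Lypd1-low cells 2 (7.83%), with 0 higher in either (7.43 and 7.11%).

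**Figure D5:**
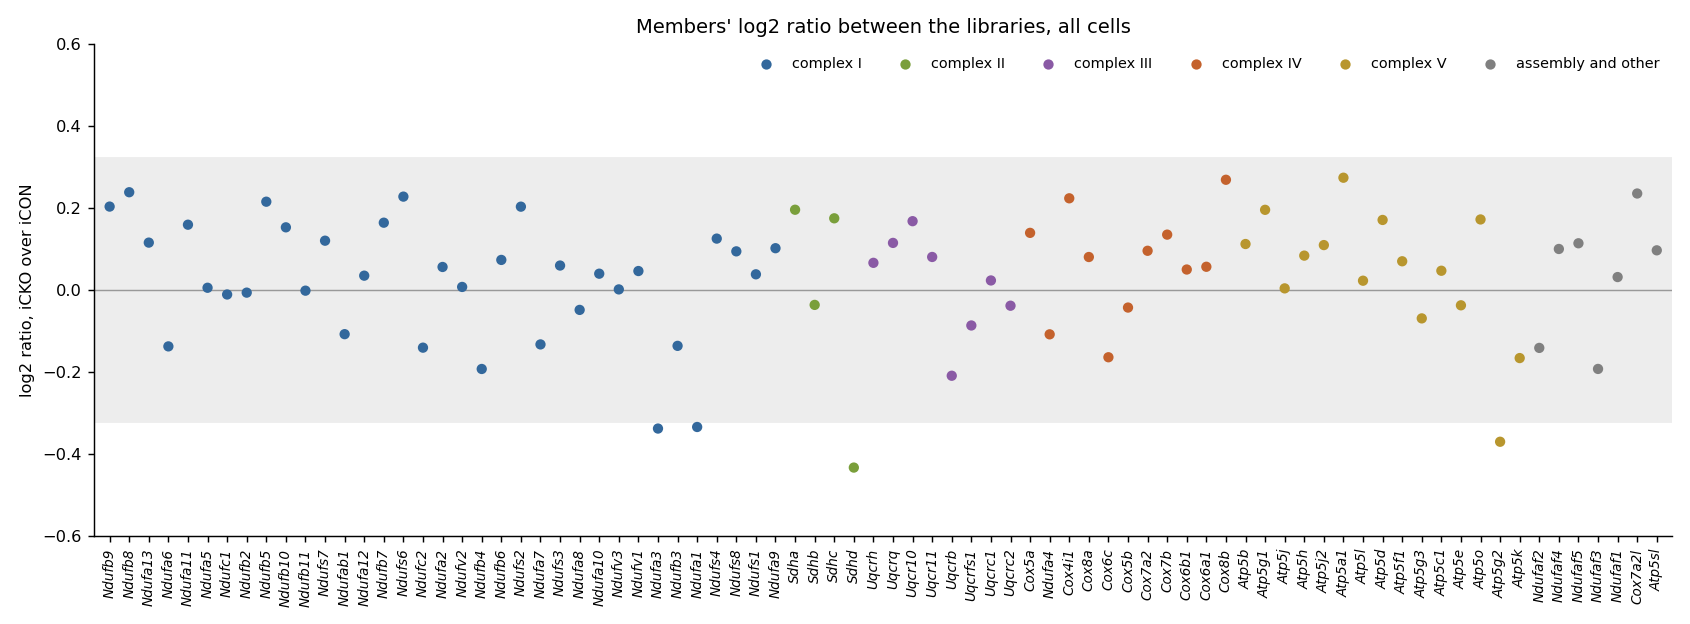
Log2 ratio of mean CPM, iCKO over iCON, over all cells for the 80 members that passed the level filter, coloured by complex, with the grey band marking ratios of at most 0.32 in size. The points lie within the band except Sdhd, Atp5g2, Ndufa3 and Ndufa1, which lie below it.

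The 4 lower members belong to 3 complexes, and of them only Sdhd kept a ratio past 0.32 in size under each of the 16 alternatives run for these values. Sdhd (chromosome 9, 50596357 to 50603812, minus strand), a membrane anchor of complex II, averaged 115 CPM in iCON and 84.2 in iCKO, with 2637 and 1177 UMIs (log2 ratio -0.43, interval -0.58 to -0.38, range -0.55 to -0.39 over 16 alternatives). Its level was lower in iCKO within each Calb2 class, at 121 and 86.6 CPM in Calb2-high, 123 and 86.6 in Calb2-intermediate and 103 and 60.7 in Calb2-low cells. The other subunits of complex II went different ways, with Sdha, the flavoprotein, at 350 and 401 CPM, Sdhb, the iron-sulfur subunit, at 332 and 324, and Sdhc, the other anchor, at 140 and 159.

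Ndufa1 and Ndufa3, accessory subunits of the complex I membrane arm, were the complex I genes called lower. Ndufa1 (chromosome X, 37187588 to 37191163, minus strand) averaged 354 and 280 CPM (log2 ratio -0.33, interval -0.43 to -0.31, range -0.43 to -0.29) and was lower in iCKO in each Calb2 class, at 413 and 287, 357 and 281, and 322 and 238 CPM. It is X-linked, and the libraries differed in the share of Xist cells; the range includes the values within Xist cells and within Y-linked cells. Ndufa3 (chromosome 7, 3617373 to 3620327, plus strand) averaged 404 and 319 CPM (-0.34, interval -0.43 to -0.33, range -0.38 to -0.27). Sdhd and Ndufa1 were called lower in all 3 Calb2 classes, 2 of 80 members, while 2.42% of 3427 genes in all were.

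Atp5g2 stood apart from the other c-subunit genes. It averaged 428 CPM in iCON and 330 in iCKO (log2 ratio -0.37, interval -0.44 to -0.34, range -0.43 to -0.29), whereas Atp5g1 averaged 1660 and 1901 (0.20) and Atp5g3 1118 and 1065 (-0.07). Of the UMIs of the 3 genes, Atp5g2 held 13.1% in iCON (exact binomial interval 12.8 to 13.3%) and 9.97% in iCKO (9.70 to 10.3%), and Atp5g1 52.1 and 57.6%. The share of Atp5g2 was lower in iCKO within Calb2-high cells (11.6 and 9.26%) and within Calb2-low cells (14.6 and 13.1%). The intervals were apart in Calb2-high cells (11.1 to 12.1% and 8.91 to 9.61%). They overlapped in Calb2-low cells (14.2 to 15.1% and 12.0 to 14.3%). Both genes have pseudogene copies, so these values are uncertain. The 3 genes lie on the minus strand, Atp5g1 at chromosome 11, 96068852 to 96075670, Atp5g2 at chromosome 15, 102662864 to 102672352, and Atp5g3 at chromosome 2, 73908447 to 73911326.

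On the high side no member was called over all cells, although up to 2 were under the alternatives. Atp5a1 averaged 1217 CPM in iCON and 1472 in iCKO (log2 ratio 0.27, interval 0.23 to 0.28, range 0.11 to 0.35 over the alternatives). Ndufb8, a membrane-arm subunit of complex I with 1 identical copy, averaged 1162 and 1372 (0.24, range 0.03 to 0.35). Cox4i1, the ubiquitous isoform of subunit 4, averaged 2945 and 3439 (0.22, range 0.10 to 0.27). Cox8b also had 0.27 over all cells, with a range of -0.19 to 0.41 over the alternatives. Its sign was not the same within classes: it was -0.12, -0.19 and -0.39 in Calb2-high, Calb2-intermediate and Calb2-low cells, and 0.04 and 0.32 in Lypd1-high and Lypd1-low cells. The share of Calb2-high cells differed between the libraries, and its part in the ratio over all cells was not tested. Equal weight for the Calb2 classes was among the alternatives in the range over all cells. Its share of the UMIs of Cox8a and Cox8b was 6.99% in iCON (6.77 to 7.21%) and 7.69% in iCKO (7.40 to 7.97%) over all cells.

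Subunits of one complex were not held at one level in either library. In complex I the abundant accessory subunits Ndufb9 (1183 and 1363 CPM), Ndufb8, Ndufa13 (1105 and 1197) and Ndufa6 (1036 and 941) were several-fold above Ndufs1, the largest core subunit (250 and 257), and Ndufa9 (197 and 211). In complex III Uqcrh, Uqcrq (1332 and 1443) and Uqcr10 (1006 and 1131), which are small subunits, were above the core proteins Uqcrc1 (439 and 446) and Uqcrc2 (447 and 435) and the Rieske iron-sulfur protein Uqcrfs1 (477 and 449). In complex V most members lay near or above the level of Atp5o (939 and 1058), a stalk subunit, with Atp5g2 and the small subunit Atp5k (383 and 340) well below. The complex I assembly factors, which are not part of the finished enzyme, were low throughout, from Ndufaf2 (159 and 144) to Ndufaf7 (37.1 and 34.5). Cox7a2l, a factor of respiratory supercomplexes, averaged 532 and 627 CPM.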

How the data were processed

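The single-cell 3′ v3 kit of 10x Genomics was used, per the labels' protocols, for 1 library per genotype. The submitters' processing notes name Cell Ranger, Seurat and the mm10 build, and steps beyond these are not given in the sources used here. The deposited values are the natural log of 1 plus CPM: linear values summed to 1000000 in each cell, and 100% of nonzero values lay within 1e-06 of a whole multiple of the cell's smallest step, from which UMI counts were recovered. The deposited annotation assigns each barcode to a library and holds text only. No column was left without a sample. The lowest number of genes in a cell was 4999, and doublets were handled only in an alternative that left out the deepest 5% of cells.

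Levels are means over cells of linear CPM. Ratios are log2 of 2 means plus 5 CPM, and genes needed a mean of at least 50 CPM in either arm. Exact conditional binomial, Clopper-Pearson and Poisson intervals at 95% cover counting error only. With 1 library per genotype no test was run, and each difference is between these libraries. Named members are the 10 highest in level, the 3 highest and the 3 lowest ratios in each comparison among members with a UMI in at least 25% of cells of an arm, and paralogue sets. Members, classes and lists were chosen with earlier results of these data known, and other members were named after their values were seen. Of the pathway genes, 1 is not reported here. Gene positions are from GENCODE M21 (89 of 90 members matched) and promoters from RefSeq, both on GRCm38. The NRF1 and YY1 letters searched were shortened after counts for longer forms were seen. Alternatives covered depth (thinning to 20000 UMIs), sex-linked RNA, myelin RNA, type II markers, pseudocount, filter, scaling, class limits and the fold. Between the libraries over all cells they also covered equal weight for the Calb2 classes. Computation used Python 3.11.15, numpy 2.4.6, pandas 2.3.3, scipy 1.17.1 and matplotlib 3.10.9, and was tested on simulated data.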

Additional observations from a re-analysis of the deposited data

How the results depend on the processing

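No paired analysis was possible because each genotype has 1 library. For the members' median log2 ratio of iCKO over iCON, Xist cells gave 0.11, Y-linked cells -0.035 and myelin-low cells 0.094 over all cells; within classes, myelin-low cells gave 0.093 in Lypd1-high and 0.091 in Calb2-low, Xist cells 0.17 in Lypd1-low and 0.14 in Calb2-low, and Y-linked cells -0.044 in Lypd1-low, 0.12 in Calb2-high and -0.45 in Calb2-low. For Lypd1-high over Lypd1-low in iCON, Xist cells gave 0.13, and leaving out cells with at least 3 type II markers gave -0.037. For Calb2-high over Calb2-low in iCON, Xist cells gave 0.29, Y-linked cells -0.012, myelin-low cells 0.42, no type II-marked cells 0.060, and limits of 15000 and 500 CPM 0.27; in iCKO Xist cells gave 0.14 and Y-linked cells 0.55. Cox8b, iCKO over iCON in Calb2-low cells, was 0.027 in Xist cells; Ndufaf6, Calb2-high over Calb2-low, was 0.0078 without type II-marked cells in iCON and 0.14 in Xist cells of iCKO. The log2 ratio of median summed levels, left without the 5 most abundant members, was 0.013 in Lypd1-low and -0.028 in Calb2-intermediate cells. For type II-marked over other cells in iCKO, at least 4 markers gave -1.03, Calb2-low cells -0.83, myelin-low cells -0.87, summed UMIs -0.35 and at least 2 markers without Gata3 -0.46; in iCON 8 alternatives gave -1.11 to -0.98. Over 17 alternatives the number of members called lower between the libraries, 4, ranged from 0 to 7; higher in Calb2-high cells, 8 in iCON and 20 in iCKO, from 2 to 56 and from 1 to 58; lower in Calb2-low cells of iCKO against iCON, 6, from 1 to 60. Members called higher between the libraries, 0 in each case, reached 2 over all cells, 2 in Lypd1-high, 8 in Lypd1-low, 3 in Calb2-high and 12 in Calb2-low cells. The counts of 56, 58 and 60 came from myelin-low cells, Y-linked cells and Y-linked cells respectively, and the 7 from leaving out the level filter. Where 56 members were called higher, 21.8% of 3940 genes in all were. Of the Calb2-low Y-linked cells, 6 of 14 in iCKO and 0 of 61 in iCON were type II-marked. The share over all genes is not given here for the other counts, so they are not read as results about the members. Another scaling moved the median of all genes by at most 0.03. The causes were not tested. Alternatives on type II-marked cells and on Lypd1-high cells were chosen after seeing the data.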

Other observations

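In the iCKO library over the iCON library, over all cells, a few genes outside the symbol rule but within the same pathways had ratios larger in size than any member past the level filter had in the same direction. Cox17, a copper chaperone for complex IV, averaged 266 CPM in iCON and 171.5 in iCKO (log2 ratio -0.62). Fh1, the fumarate hydratase of the TCA cycle, averaged 81.4 and 55.0 (-0.53). Ppargc1a averaged 220 and 285 (0.36). Cytosolic ribosomal proteins had a median of -0.15, with 8 of 78 above 0 and 15 called lower, where 7.59% of 3766 genes in all were.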
